A study of Mus musculus with 12 samples.

Results

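Srsf6, Nop58 and Mcm3ap encode proteins that act on RNA between transcription and translation. The cytosines of their mRNAs were followed by RNA bisulfite sequencing in adult mouse neural stem cells (NSCs) grown with different amounts of folic acid. A cytosine of these genes was kept as a candidate 5-methylcytosine (m5C) site when it had a coverage of at least 20 reads, at least 6 unconverted reads and a methylation level of at least 10% in both replicates of at least 1 condition. Of 2727 different cytosines listed for the 3 genes (746 in Srsf6, 470 in Nop58 and 1511 in Mcm3ap), 3 met this rule, 1 in each gene. In the whole series 6462 of 6384216 different cytosines listed met it. These sites were chosen by their measured coverage and methylation levels, so that the presence of a site is a description and not a test.

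Bisulfite turns unmethylated cytosine into uracil, read as T, and leaves m5C as C, so the share of unconverted reads estimates the methylation level. SRSF6 is a serine/arginine-rich (SR) protein that binds exons and guides splicing. NOP58 is a core protein of box C/D small nucleolar ribonucleoproteins, which guide 2'-O-methylation of ribosomal RNA and take part in ribosome assembly. MCM3AP, also called GANP, is the scaffold of the TREX-2 complex, which links transcription to the export of mRNA through the nuclear pore. In cytosolic mRNA, m5C is deposited mainly by NSUN2 and NSUN6, and bound by readers such as ALYREF and YBX1.

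The cells came from the subventricular zone of wild-type (WT) male C57BL/6 mice aged 6 to 8 weeks and were cultured for 4 days with 1.5 µM (LF), 10 µM (MF) or 80 µM (HF) folic acid, all with epidermal and fibroblast growth factors. Total poly(A) RNA (LF, MF, HF) and poly(A) RNA from polysome fractions (pLF, pMF, pHF) were sequenced, with 2 replicates in each of 6 conditions and 12 libraries in all. MF was the reference concentration in the comparisons between folate amounts. The cultured cells of 1 strain and sex limit the model, and in such bulk RNA fewer cells with a transcript and less of it per cell cannot be told apart.

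The libraries listed between 797260 and 2071190 cytosines with a summed coverage of 1186213013 to 2857966129. A library listed a cytosine only when it had at least 10 reads and at least 1 unconverted read. Rows marked with a variant base, 4734 to 27353 in a library, were then left out. A cytosine called unlisted below was thus poorly covered, fully converted or marked in this way. Both libraries labelled HF stood apart: 25.6% and 26.5% of their called cytosines lay within 25 bases of another called one, against 55.3% to 90.7% in the other 10. The counts in the files with this label also differ from those that the study lists for HF, and the files are called "the libraries labelled HF" here. The second pHF library was a further exception, with 38353 cytosines above a level of 90% against at most 3465 in any other library and a median coverage of 920 against 335 to 605. The neural stem cell markers Nes, Vim, Fabp7, Slc1a3 and Msi1 were listed in all 12 libraries, and the reads over Sox2 carried the name of the overlapping gene Sox2ot. None of 4 neuronal, 3 oligodendrocyte and 3 endothelial markers was listed in all 12, while 1 of 3 astrocyte markers (Aldh1l1), 1 of 3 microglial markers (Cx3cr1) and 3 of 3 fibroblast or mural markers (Acta2, Pdgfrb, Col1a1) were. In the study's immunostaining all cells were positive for Nestin and Sox2. Whether the other markers came from other cells or from the stem cells themselves was not tested.

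The 21 bases around each site are shown because they are what the 3 mRNAs share or do not share at the modified position. They are written 5′ to 3′ on the plus strand of mm10, as the files give them, with the candidate cytosine in capitals.
Srsf6: agttactcttCcgagtttata
Nop58: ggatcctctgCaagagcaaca
Mcm3ap: gagcccctgcCacatgagctg
All 3 sequences matched the reference genome, and no other annotated gene overlapped any of the sites.

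The Srsf6 site (ENSMUSG00000016921) lay on chromosome 2 at position 162934825. In the protein-coding transcript Srsf6-203 this is exon 6 of 6, in the 3' UTR, 68 bases after the stop codon and 2296 bases before the end of the transcript. The same base is also in exon 7 of Srsf6-201, a transcript annotated as a target of nonsense-mediated decay, and in exon 5 of the retained-intron transcript Srsf6-204, so its reads cannot be assigned to 1 of them. The Nop58 site (ENSMUSG00000026020) lay on chromosome 1 at position 59718084, in exon 15 of 15 of Nop58-215. It was 6763 bases into a 3' UTR of 7723 bases, a long form of the Nop58 3' end. The Mcm3ap site (ENSMUSG00000001150) lay on chromosome 10 at position 76482688, in exon 8 of 29 of Mcm3ap-201 (76482624 to 76482821). It was the second base of codon 681 of 1971 and, by these transcripts, the only one of the 3 in coding sequence. The same base is also in codon 30 of Mcm3ap-203, annotated as subject to nonsense-mediated decay, and in the noncoding processed transcript Mcm3ap-206.

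The sites were all isolated, with no other called cytosine within 25 bases on the same strand. Of 6462 candidate sites, 2354 were isolated in this sense, and 2347 of those were outside the mitochondrial genome. The sequence CTCT stood at positions -5 to -2 from the cytosine in Srsf6 and Nop58 and not in Mcm3ap, a feature noticed after the sequences had been read. Among the 276 isolated sites that passed in a condition other than labelled HF alone, 4 had CTCT there, Srsf6 and Nop58 included, so their share is not independent of these members. The sequence GGG at positions +2 to +4, present in 21.7% of those 276 sites and in 1.80% of 1762221 listed cytosines used as background, was in none of the 3 members. The base after the cytosine was C in Srsf6 and A in Nop58 and Mcm3ap, and A followed 46.7% of the 276 sites. GGGG at positions -4 to -1 was found at 72.0% of the 2071 isolated sites that passed in the libraries labelled HF alone, at 0 of the 276 others and at none of the 3 members.

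In RNA folding predictions over 201 bases of transcript at 37 °C, the Srsf6 and Mcm3ap cytosines were mostly unpaired and the Nop58 cytosine mostly paired. The pairing probability was 0.0279 for the Srsf6 site, against a median of 0.482 for the 44 other cytosines in its window. It was 0.0741 for the Mcm3ap site, against 0.850 for 53 others, and 0.732 for the Nop58 site, against 0.915 for 37 others. At 70 °C, a temperature used in the conversion, the probability was 0.0753 for Srsf6 (median of the others 0.260), 0.101 for Mcm3ap (0.623) and 0.623 for Nop58 (0.617), so the Nop58 site was no longer below its neighbours' median. These are properties of predicted structures and were not measured in the cells.

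The Srsf6 cytosine was above 29% in every library, and no difference passed the test between LF and MF or between total and polysome RNA. In LF its level was 29.3% (92 of 314 reads) and 33.5% (132 of 394), with a mean of 31.4% ± 2.97 (SD, n = 2). The MF replicates had 32.0% (140 of 438) and 30.9% (138 of 446), with a mean of 31.5% ± 0.722 (SD, n = 2). Both libraries labelled HF were higher, with 47.6% (30 of 63) and 47.1% (33 of 70), above all 10 other libraries. The 4 LF and MF libraries overlapped and sat within 29.3% to 33.5%.

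In polysome RNA the pLF replicates had Srsf6 levels of 30.6% (11 of 36 reads) and 39.6% (36 of 91). The pMF replicates had 31.8% (21 of 66) and 43.4% (23 of 53), and the pHF replicates 33.3% (20 of 60) and 43.0% (52 of 121). The means were 35.1% ± 6.37, 37.6% ± 8.19 and 38.2% ± 6.82 (SD, n = 2 each), and the 3 conditions overlapped. The second replicate was higher than the first in each polysome condition, by 9.0, 11.6 and 9.64 percentage points. With 36 to 121 reads at the site, the 95% Wilson intervals of single polysome libraries were wide, 18.0% to 46.9% in the first pLF library against 26.8% to 35.4% in the second MF library. These intervals, and those of the differences given later, cover counting error only.

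**Figure D1:**
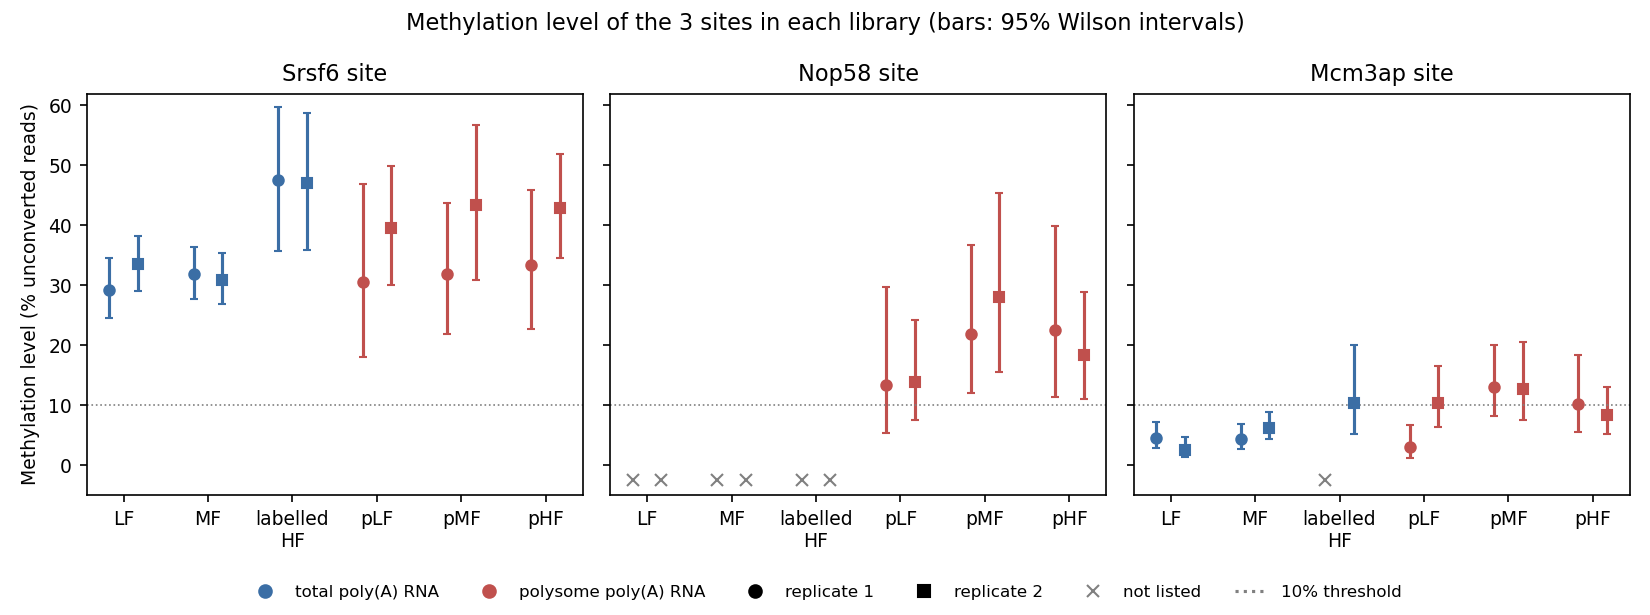
Methylation level (percent of unconverted reads) of the Srsf6, Nop58 and Mcm3ap sites in each of 12 libraries, by condition, with total poly(A) RNA in blue and polysome poly(A) RNA in red, circles for replicate 1, squares for replicate 2 and bars for 95% Wilson intervals of counting error. Srsf6 was between 29.3% and 47.6% in every library, Nop58 was listed only in the 6 polysome libraries, and Mcm3ap was highest in pMF at 13% and 12.7%; grey crosses mark libraries that did not list the site.

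Between fractions, the mean Srsf6 level was 36.7% ± 8.35 in total and 36.9% ± 5.74 in polysome RNA (SD, n = 6 each), a difference of 0.19 percentage points that was not distinguishable from 0 (exact two-sided permutation test within concentrations, p = 0.981, smallest possible p = 0.00926). With reads pooled per fraction the difference was 5.42 (exact permutation p = 0.0556). Pooling weights each library by its reads, and the libraries labelled HF gave 63 and 70 against 314 to 446 in LF and MF. Without the libraries labelled HF and pHF, the level was 31.4% ± 1.77 in total and 36.3% ± 6.17 in polysome RNA (SD, n = 4 each), a difference of 4.91 percentage points (exact permutation p = 0.278). With these libraries the smallest possible p was 0.0556, so the test could not have passed. By the means over replicates, pLF was at 35.1% against 31.4% in LF, pMF at 37.6% against 31.5% in MF, and pHF at 38.2% against 47.4% in the libraries labelled HF. With the reads of both replicates summed, pLF was 5.37 percentage points above LF (95% Newcombe interval -3.28 to 14.6, Fisher's exact test adjusted p = 0.322). Summed in this way, pMF was 5.53 above MF (-3.20 to 15, adjusted p = 0.355), and the difference of pHF from the libraries labelled HF was -7.59 (-18.5 to 3.44, adjusted p = 0.286). With 1 library left out, the difference ran from -1.08 (without the second pLF library) to 7.92 (without the first) for pLF against LF, so its direction turned. It ran from 0.37 (without the second pMF library) to 11.9 (without the first) for pMF against MF, and from -14.0 (without the second pHF library) to -4.39 (without the first) for pHF against the libraries labelled HF, and none passed. None of the 3 passed, in comparisons where 65.0%, 53.6% and 65.3% of all sites tested were called different. The difference of the fraction effect between the labelled HF and MF concentrations was -0.94 in log2 odds and did not pass either (limma adjusted p = 0.157).

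Between folate concentrations in total RNA, LF and MF differed at the Srsf6 site by 0.19 percentage points (95% interval -4.38 to 4.80, Fisher's exact test adjusted p = 1), where 0.760% of 1842 sites tested were called. The coverage of the site was 314 to 446 reads in these 4 libraries. The libraries labelled HF were 15.9 percentage points above MF (7.06 to 24.9, Fisher's exact test adjusted p = 0.000419; limma on log odds adjusted p = 0.0277), with no overlap between the groups. In that same comparison 94.3% of 1138 sites were called, so a call there sets the Srsf6 site apart from few of the sites tested. It was covered by 63 and 70 reads there, against 438 and 446 in MF. In polysome RNA, with the reads of both replicates summed, pLF and pMF differed by 0.03 percentage points (-11.9 to 11.9, Fisher's exact test adjusted p = 1), and pHF and pMF by 2.80 (-8.47 to 13.7, adjusted p = 1), with 9.68% and 9.10% of sites called. By the means over replicates, pLF (35.1%) lay below pMF (37.6%), and pHF was at 38.2%. At 36 to 121 reads a library, a change within these wide intervals was not detectable.

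**Figure D2:**
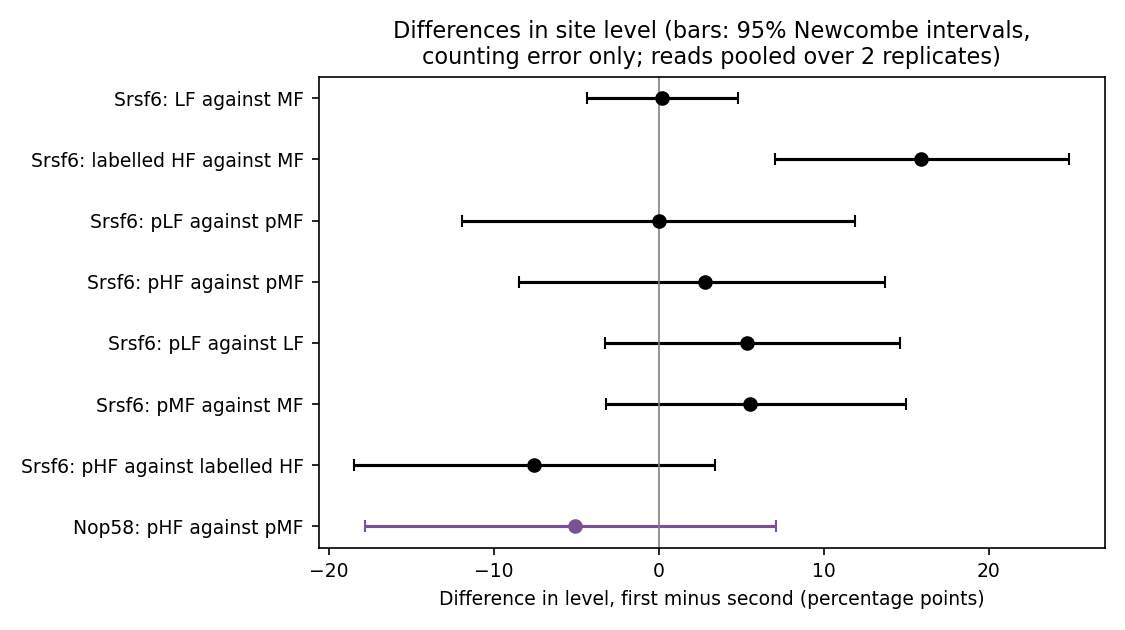
Differences in methylation level (percentage points, first condition minus second) at the Srsf6 site for 7 comparisons and at the Nop58 site for pHF against pMF, from reads pooled over 2 replicates, with bars for 95% Newcombe intervals. Of the 7 Srsf6 intervals, only that of the libraries labelled HF against MF (7.06 to 24.9) excludes 0. The Nop58 interval is a description with no test, because its values chose the site.

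The cytosines next to the Srsf6 site were almost fully converted. Within 25 bases, up to 14 other cytosines were listed in a library, each with 1 to 3 unconverted reads and a level of at most 4.55%, reached in the first library labelled HF. Taking the median unconverted reads of these neighbours off the site changed the mean fraction difference from 0.19 to -0.09 percentage points (exact permutation p = 0.981). Over the rest of the gene, 0.0805% to 0.284% of read bases at listed cytosines were unconverted. In the 3' UTR that holds the site this share was higher, 0.258% to 1.11% in total and 1.67% to 6.05% in polysome libraries. The highest, in the second pHF library, came from 6 listed cytosines. Within 500 bases the highest level was 60.0%, at a cytosine of the first library labelled HF that was not called. A stretch 108 to 147 bases upstream stood out in the first library labelled HF, with listed cytosines at 7.69% to 20.0% from 2 to 4 unconverted reads each at a coverage of 17 to 26, and none of these was called.

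The Nop58 cytosine was seen only in polysome libraries. At pLF it had levels of 13.3% (4 of 30 reads) and 13.8% (9 of 65). The pMF libraries gave 22.0% (9 of 41) and 28.1% (9 of 32), and the pHF libraries 22.6% (7 of 31) and 18.3% (13 of 71). The mean over the 6 libraries was 19.7% ± 5.68 (SD), and the pLF libraries were lower than the 4 others. The rule used these levels: the site passed in both replicates of pMF and of pHF, and the first pLF library missed it with 4 unconverted reads. With reads of both replicates summed, the difference of pHF from pMF was -5.05 percentage points (95% Newcombe interval -17.8 to 7.11, counting error only). With 1 library left out it ran from -8.52 to -2.08. The difference is given as a description with no test, because these are the values that chose the site.

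None of the 6 total libraries listed the Nop58 cytosine, or any other cytosine within 100 bases of it. The far part of the long 3' UTR was thinly covered in both fractions. In that part, the listed cytosines had a median coverage of 23 to 37.5 in total libraries (4 to 46 cytosines listed) and 11 to 61 in polysome libraries (1 to 6 listed). The 3' part shared with the shorter transcript had 613 to 1402 reads in total and 347 to 1315 in polysome libraries. The genomic span of the coding sequence, introns included, had 327 to 1146 and 36 to 1719. In the polysome libraries the site itself had 30 to 71 reads. Whether the total libraries lacked reads there, had only converted reads or held a row marked with a variant base cannot be told apart.

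**Figure D3:**
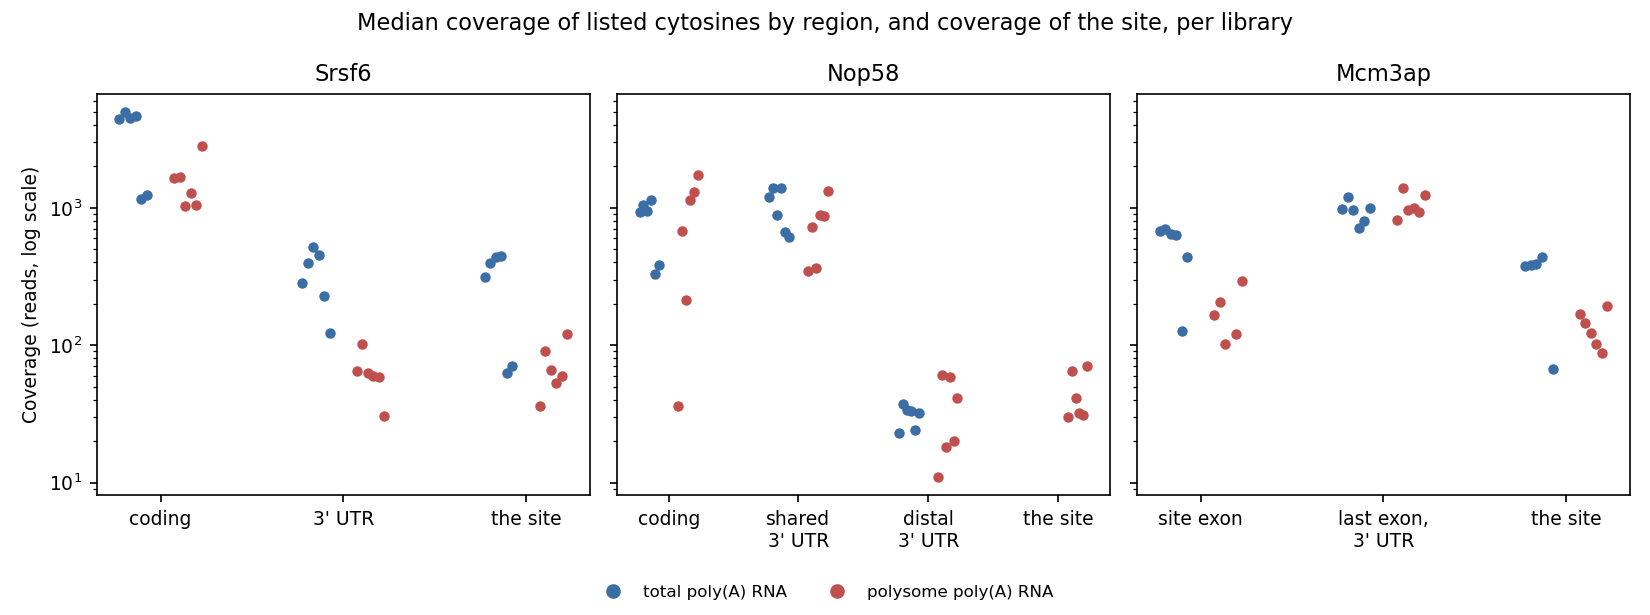
Median coverage (reads, log axis) of the listed cytosines of each region of Srsf6, Nop58 and Mcm3ap, and coverage of the site itself, with 1 point per library, total poly(A) RNA in blue and polysome poly(A) RNA in red. Regions marked coding are genomic spans with introns included. The distal Nop58 3' UTR had medians of 23 to 37.5 reads in total and 11 to 61 in polysome libraries. The Nop58 site has points only for polysome libraries, at 30 to 71 reads.

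The Mcm3ap cytosine had the lowest level of the 3 and passed in both replicates of pMF alone. The LF replicates had 4.52% (17 of 376 reads) and 2.59% (10 of 386), and the MF replicates 4.38% (17 of 388) and 6.21% (27 of 435). The second library labelled HF had 10.4% (7 of 67), and the first did not list it. In polysome RNA the 2 pLF replicates differed, with 2.96% (5 of 169) and 10.4% (15 of 144). The pMF replicates had 13% (16 of 123) and 12.7% (13 of 102), and the pHF replicates 10.2% (9 of 88) and 8.29% (16 of 193). The 4 LF and MF libraries lay below 5 of 6 polysome libraries, and the first pLF library lay among them. The mean was 5.63% ± 2.98 in total (SD, n = 5) and 9.61% ± 3.70 in polysome RNA (SD, n = 6), or 4.43% ± 1.48 and 9.78% ± 4.70 (SD, n = 4 each) without labelled HF and pHF. The n of 5 leaves out the first library labelled HF, where cytosines 1 and 7 bases upstream had 86 and 89 reads. A fully converted site there would lower the mean of 5.63%. Since the site was chosen for its level in pMF, the difference between fractions is given with no test.

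The listed neighbours of the Mcm3ap site were nearly all converted. Within 25 bases, at most 14 other cytosines were listed, at levels of up to 0.789% in LF and MF and 0.613% in polysome libraries. The first library labelled HF was the exception, with 8 unconverted reads of 89 (8.99%) at a cytosine 7 bases upstream, while the site itself was not listed there. The exon of the site had a median coverage of 126 to 706 in total libraries and 102 to 292 in the 5 polysome libraries that listed another cytosine in it. The last exon with the 3' UTR had 713 to 1196 and 821 to 1385 in the 2 fractions, which overlapped without scaling between libraries.

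**Figure D4:**
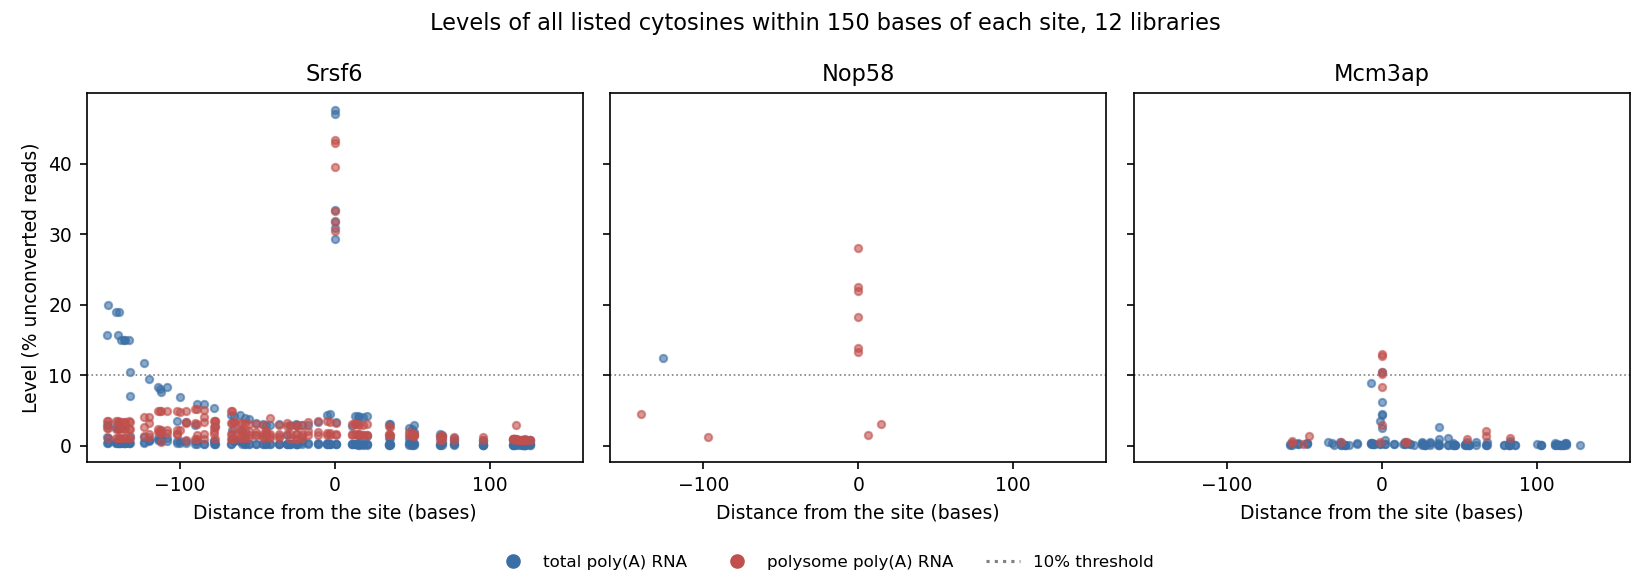
Level (percent of unconverted reads) of every listed cytosine within 150 bases of the Srsf6, Nop58 and Mcm3ap sites, by distance from the site in bases along the plus strand, with 1 point per cytosine and library, total poly(A) RNA in blue and polysome poly(A) RNA in red. The site at distance 0 stands above its neighbours in Srsf6, few neighbours were listed for Nop58, and the rise upstream of Srsf6 to 20.0% belongs to the first library labelled HF.

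Candidates just outside the rule were near in number but low in level or reads. In Srsf6 the next cytosine, at position 162932827, was at 3.95% and 5.08% in the libraries labelled HF. In Nop58 it was at position 59704730, with 6.67% and 15.7% in the same libraries, and in Mcm3ap at 76511154, with 12.8% and 17% but only 5 unconverted reads in one of them. In all, 13 cytosines of the 3 genes passed in at least 1 library, and 10 of them in a single library only, at levels of 10.3% to 35.7%. Of these 10, 5 were called in a library labelled HF, 3 in the second pHF library and 2 in a pLF library.

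Among the 2347 isolated sites outside the mitochondrial genome, 29 passed in both replicates of all 6 conditions, and the Srsf6 site was one of them. The Nop58 site was one of 18 that passed in pMF and pHF alone, and the Mcm3ap site one of 11 that passed in pMF alone. In comparison, 135 passed in polysome conditions alone and 2071 in the libraries labelled HF alone. The 3 sites of other nuclear genes whose levels followed Srsf6 most closely over the 12 libraries were in Rpl23 (Pearson's r = 0.878), Amz2 (r = 0.858) and Use1 (r = 0.849), out of 332 sites compared. These r values describe sites that share their libraries and depth, and carry no test.

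Coverage gave a second readout, of how much of each mRNA was sequenced. It was taken as the mean coverage per cytosine, scaled between libraries by the median ratio over genes, and compared on the log2 scale with limma. The main comparison used only cytosines listed in all 12 libraries, which left 1338 genes with at least 3 of them. Srsf6 entered it with 5 such cytosines, 4 in coding sequence and the site itself. Of these 4, 3 lay 552, 541 and 515 bases before the site, close enough for 1 read to count at all of them. Nop58 had 1 cytosine listed in all libraries and Mcm3ap 0, so both genes were compared only over all cytosines that a library listed, in 9449 genes. The files hold no read counts per gene, and coverage counts 1 read at several cytosines.

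The Srsf6 mRNA had less coverage in polysome than in total RNA on the cytosines listed in all libraries. Its scaled coverage was 4568 and 4511 in the LF replicates, 5009 and 4840 for MF, and 1973 and 2044 with the label HF. The polysome libraries had 1847 and 1479 (pLF), 1581 and 1798 (pMF) and 1531 and 1896 (pHF). All 6 polysome libraries lay below all 6 total libraries. Averaged over concentrations the log2 difference, polysome minus total, was -1.08 (SE 0.0801, limma adjusted p = 2.04e-07), in a comparison where 78.7% of 1338 genes were called and 39.3% were lower in polysome RNA. In LF and MF alone, within the fit on all 12 libraries, it was -1.50 (adjusted p = 1.20e-07), where 74.4% were called. Scaled by the summed coverage of each library, the median over all genes moved to 0.61 and the value of Srsf6 to -0.46 (limma adjusted p = 0.0023). Such a scaling moves all genes by the same amount, so it could not change the difference of Srsf6 from the median gene.

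By concentration, the log2 difference was -1.46 for pLF against LF (SE 0.139, limma adjusted p = 5.3e-06), -1.55 for pMF against MF (SE 0.139, adjusted p = 3.4e-06) and -0.24 for pHF against the libraries labelled HF (SE 0.139, adjusted p = 0.141). These 3 comparisons called 63.3%, 63.1% and 74.3% of genes. The difference between the labelled HF and MF effects was 1.31 (SE 0.196, limma adjusted p = 0.00027), a contrast that called 56.1% of genes. The LF and MF effects differed by 0.09 (SE 0.196, adjusted p = 0.989). Leaving out the second pHF library, the pHF difference was -0.38 (adjusted p = 0.0439).

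Between folate concentrations, Srsf6 coverage differed by -0.12 for LF against MF (SE 0.139, limma adjusted p = 0.999), a comparison that called 0 of 1338 genes (24 at an unadjusted p under 0.05, and 0 with edgeR). In polysome RNA it differed by -0.03 for pLF against pMF (adjusted p = 0.944) and by 0.01 for pHF against pMF (adjusted p = 0.959), where 0 and 0.747% of genes were called. These counts depended on single libraries. For pLF against pMF 242 genes were called without the second pLF library, and for pHF against pMF, with 10 called, 162 and 155 were called without the first or second pLF library, 22 without the first pHF library, 0 without the first pMF library and 3 to 5 without any 1 of the others. The 0 of pLF against pMF stood beside 160 genes at an unadjusted p under 0.05 and 0 by edgeR. The libraries labelled HF were lower, with -1.29 against MF (SE 0.139, adjusted p = 1.16e-05), where 66.3% of genes were called. In the wider comparison over all listed cytosines, the fractions of Srsf6 overlapped, with 817 and 809 in the libraries labelled HF and 697 to 1860 in polysome RNA. Averaged over concentrations the difference there was -0.58 (SE 0.155, limma adjusted p = 0.00602, 57.3% of 9449 genes called), and scaled by summed coverage it was -0.26 and did not pass (adjusted p = 0.266). The fraction difference in LF and MF alone was also negative (-1.29, SE 0.190, adjusted p = 0.000111, 50.4% of genes called), while pHF lay above the libraries labelled HF (0.84, SE 0.269, adjusted p = 0.0236, 41.0% called).

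**Figure D5:**
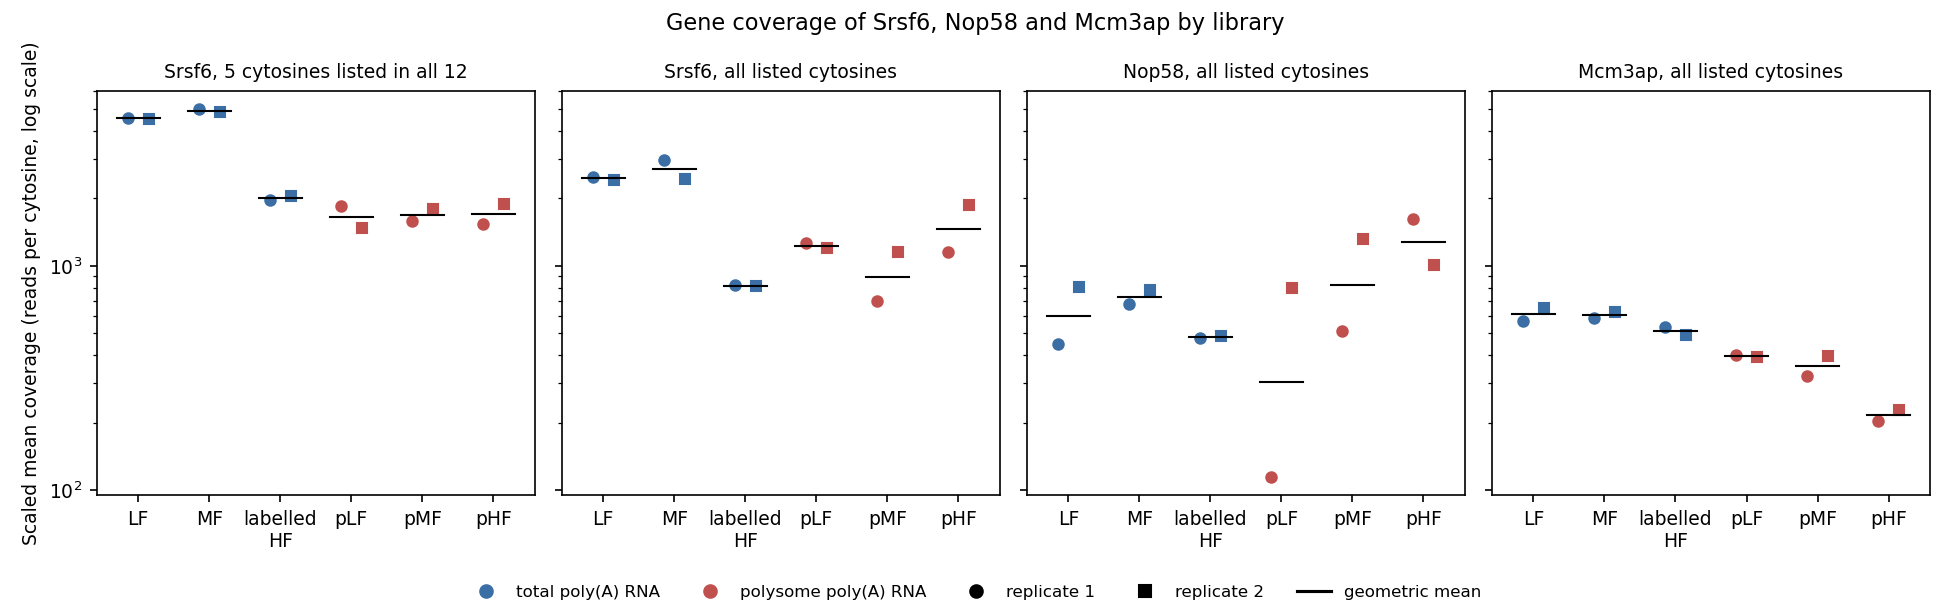
Scaled mean coverage per cytosine (reads, log axis) of Srsf6 over 5 cytosines listed in all 12 libraries, and of Srsf6, Nop58 and Mcm3ap over all cytosines listed in each library, by condition, with circles for replicate 1, squares for replicate 2, total poly(A) RNA in blue, polysome poly(A) RNA in red and lines for geometric means. Srsf6 was at 4511 to 5009 in LF and MF and at 1479 to 1896 in polysome libraries, the Nop58 libraries spread from 115 to 1612, and Mcm3ap was at 493 to 651 in total and 204 to 402 in polysome libraries.

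Within Srsf6, the genomic span of the coding sequence, introns included, was read more deeply than the 3' UTR in both fractions. The median coverage of listed cytosines, not scaled between libraries, was 1151 to 4999 in that span and 123 to 522 in the 3' UTR of total libraries. In polysome libraries it was 1024 to 2806 and 30.5 to 103. The plot of coverage by region shows the site at the level of the 3' UTR, with 63 to 446 reads in total and 36 to 121 in polysome libraries.

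Averaged over all listed cytosines, Mcm3ap also had less scaled coverage in polysome RNA. The LF replicates had 569 and 651, those of MF 588 and 619, and the libraries labelled HF 532 and 493. The pLF replicates had 402 and 391, those of pMF 322 and 395, and those of pHF 204 and 227. The fractions did not overlap, and the log2 difference was -0.88 (SE 0.147, limma adjusted p = 0.00023), where 57.3% of 9449 genes were called and 28.7% as lower. It was -0.69 in LF and MF alone (SE 0.180, adjusted p = 0.00644). Between pHF and pMF it was -0.73 (SE 0.255, adjusted p = 0.32), and no comparison of Mcm3ap between concentrations passed the test. Among all genes, limma called 0 for LF against MF (153 at an unadjusted p under 0.05) and 0 for pHF against pMF (1056 at an unadjusted p under 0.05), 0.0212% for pLF against pMF and 22.0% for the libraries labelled HF against MF. Without the second pLF library pLF against pMF called 102 genes in place of 2, and without 1 of the MF or labelled HF libraries the last comparison called 773 to 1227 in place of 2075. Since each library listed other Mcm3ap cytosines, 72 of them in the first pLF library and more in the 11 others, part of such a difference can come from which cytosines were averaged, and that part was not tested. In the last coding exon with the 3' UTR, the unscaled median coverage was 713 to 1196 in total libraries (median 971) and 821 to 1385 in polysome libraries (median 973), which overlapped. Scaling moved each library by its own factor, such as the first LF library from 640 to 569 and the first pMF library from 238 to 322. The exon values can therefore not be set against the scaled difference, and whether this region differed on that scale was not tested.

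Nop58 coverage was too uneven between replicates for a direction. The LF replicates had 448 and 802, those of MF 675 and 782, and the libraries labelled HF 475 and 488. The pLF replicates had 115 and 800, those of pMF 511 and 1323, and those of pHF 1612 and 1005. Over the genomic span of the coding sequence, the unscaled median coverage was 36 in the first pLF library and 678.5 in the second. In the shared 3' part the medians were 347 and 728. Each library listed other Nop58 cytosines, so part of this spread can come from which of them were averaged, and that part was not tested. The fractions overlapped, and the log2 difference was 0.20 (SE 0.391, limma adjusted p = 0.683). The value depended on which libraries entered. Without the first pLF library the difference was 0.67, and without the second pLF library -0.27. In LF and MF alone, fitted without the libraries labelled HF, it was -0.40 (limma adjusted p = 0.53), a value that leaves out pHF as well. No comparison of Nop58 between concentrations passed, the widest being -1.44 for pLF against pMF (SE 0.677, adjusted p = 0.479). That comparison also depended on 1 library, with -2.84 and a call (adjusted p = 0.0337) without the second pLF library and -0.04 without the first.

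The genes that work with the 3 members were followed as lists, in the same fit over common cytosines. Of 13 SR proteins, 9 could be tested, and between polysome and total RNA 1 was higher, 5 were lower and 3 did not pass, where 78.7% of the 1338 genes were called and 39.3% were lower. The list's median log2 difference was -0.31, against -0.0046 over all genes. The lower ones included Srsf2, which acts in splicing of many exons (-2.74, SE 0.127, limma adjusted p = 6.01e-09), and Tra2b, a splicing activator related to SR proteins (-1.67, SE 0.0654, adjusted p = 1.94e-09), besides Srsf6 itself. Tra2b turned direction over all listed cytosines (0.51, SE 0.184, adjusted p = 0.0298), where Srsf2 was at -1.36 (adjusted p = 6.88e-06). Srsf7, which also takes part in mRNA export, was higher (0.41, SE 0.0645, adjusted p = 0.000109). In LF and MF alone the counts were 1 higher, 7 lower and 1 not called, beside 74.4% of all genes called. Scaled by summed coverage, which moved all genes up by 0.61, 6 were higher and 3 lower, beside 974 higher and 164 lower of the 1338 genes. The list's median was -0.30 relative to that of all genes, a value that a change of library scaling cannot alter. When all listed cytosines were averaged, 6 of 12 tested were higher and 3 lower, where 57.3% of 9449 genes were called. The list's median turned to 0.36 there, against -0.03 over all genes, so no direction is given for this list. That comparison differed in the cytosines, in the genes tested and in the scaling together.

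Of 12 proteins of box C/D ribonucleoproteins and their assembly, 3 could be tested. Nop56, the partner of NOP58 (0.54, SE 0.0964, limma adjusted p = 0.000281), and Ruvbl2, a helicase-like ATPase used in assembly (0.16, SE 0.0578, adjusted p = 0.0253), were higher in polysome RNA, and Nolc1, a nucleolar chaperone, was at 0.09 (adjusted p = 0.326). In LF and MF alone Nop56 did not pass (0.15, SE 0.118, adjusted p = 0.275) and Ruvbl2 was at 0.25 (adjusted p = 0.00753), so 1 of the 3 was higher and 2 were not called. All genes were called at 78.7% over the concentrations together and at 74.4% in LF and MF alone. With the median over cytosines in place of the mean, 1 of the 3 was higher and 2 were lower, beside 544 higher and 533 lower of the 1338 genes, so no direction is given for this list. With all listed cytosines 12 could be tested, of which 7 were higher, 1 was lower and 4 did not pass, with a median of 0.73 against -0.03 over the 9449 genes, of which 57.3% were called. Fbl, the methyltransferase of these particles, was at 1.48 there (SE 0.169, adjusted p = 1.04e-05).

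Of 22 proteins of TREX-2 and mRNA export, 7 could be tested, with 3 higher, 2 lower and 2 not called, in the comparison that called 78.7% of all genes, and a median of -0.06. In LF and MF alone 3 were higher, 3 lower and 1 not called (74.4% of all genes called), with a median of -0.16. With the median over cytosines 4 were higher and 1 lower, and the list's median turned to 0.21, so no direction is given for this list. Eny2 (1.63, SE 0.0980, limma adjusted p = 3.93e-08) and Sem1 (1.08, SE 0.115, adjusted p = 4.13e-06), both small subunits of TREX-2, were higher in polysome RNA. On the common cytosines, Cetn2, the centrin of the complex, was lower (-0.24, SE 0.0714, adjusted p = 0.00996), as was Chtop, an adaptor for export (-0.28, SE 0.0538, adjusted p = 0.000452). Neither passed over all listed cytosines, where Cetn2 was at 0.26 (adjusted p = 0.223) and Chtop at 0.22 (adjusted p = 0.125), so no direction is given for them. There 20 genes of the list could be tested, with 6 higher, 3 lower and 11 not called and a median of 0.20, where 57.3% of 9449 genes were called. By summed coverage all 7 were higher on the common cytosines, beside 974 of 1338 genes, with the list's median at -0.06 relative to that of all genes. In LF against MF, limma called none of the 9, 3 and 7 tested genes of the lists, beside 0 of all 1338 genes.

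Candidate m5C sites were also found in other genes of these lists. They were in 3 of 13 SR genes (Srsf2, Srsf6 and Tra2a), 2 of 12 box C/D genes (Nop58 and Nop56, the latter with 2 sites) and 3 of 22 export genes (Mcm3ap, Thoc3 and Poldip3). These counts include the 3 members, and the share of all genes with such a site is not given here. They therefore do not show whether the lists hold sites more often than other genes. The sites of Srsf2, Tra2a, Nop56 and Thoc3 passed in the libraries labelled HF alone, and each had at least GGG right before the cytosine. The site in Poldip3, a protein bound to the export factor ALYREF, passed in both replicates of pLF, pMF and pHF and of no total condition, and in 7 single libraries, of which at least 1 was thus of total RNA. It was on chromosome 15 at position 83126926 on the minus strand, and its surroundings are shown for comparison with the 3 members.
Poldip3: ttgattggatCagagccattg
It was covered in all 12 libraries, passed in pLF, pMF and pHF, and had levels of 2.90% to 17.5% with a median of 10.5%.

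The genes whose scaled coverage followed the members most closely over the 12 libraries were named by the highest Pearson's r. For Srsf6 over common cytosines they were H1f0 (r = 0.985), Ctsd (r = 0.974) and Uqcrb (r = 0.974), out of 1337 others. Over all listed cytosines, out of 9448 others, they were Paip2 (0.977), Ywhae (0.960) and Hmgb1-ps2 (0.954) for Srsf6, Pla2g12a (0.917), Dcaf1 (0.912) and Ccdc174 (0.889) for Nop58, and Zbtb12 (0.967), Rpap1 (0.964) and Plk1 (0.954) for Mcm3ap. The values share libraries and scaling, and are given without a test.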

How the data were processed

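Adult mouse NSC poly(A) RNA was bisulfite converted by the authors and sequenced in 12 libraries. Per the study's methods, reads were trimmed (fastp), mapped to mm10 (meRanGh) and called with meRanCall. The processing notes name R 4.1.1. Each file deposited by the authors lists cytosines with counts (coverage and unconverted reads, coverage of at least 10) and a methylation fraction, which equalled unconverted reads over C plus T reads in every row. They precede the study's later filters for clustered unconverted reads, noise and structure. No column belonged to another sample. Rows marked as carrying a variant base did not enter the tests. Other data of the study were not analysed here.

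Groups came from the labels. The study calls the replicates biological, but nothing in the labels ties them to separate animals. The p-values of limma, edgeR and the permutation test thus measure only the spread between these samples, which may be technical. Those of Fisher's exact test measure counting error only. The members, gene lists and tests were chosen with earlier results of these data known. Sites passed with coverage of at least 20, at least 6 unconverted reads and a level of at least 0.1. Levels were compared with Fisher's exact test, with the reads of both replicates summed, adjusted by Benjamini-Hochberg over all sites tested, which leaves out the spread between replicates, and with limma on log odds (pseudocount 0.5). Of the members only Srsf6, which passed in all conditions, has its level tests reported. The 2 fractions were compared with an exact permutation test over libraries. Gene coverage was tested with limma (lmFit, eBayes with trend), with edgeR as an alternative, at an adjusted p of 0.05. Nop58 and Mcm3ap had fewer than 3 common cytosines, so their comparison over all listed cytosines was chosen after seeing the data. Further named sites and genes are the 1 nearest below the thresholds per gene, the 3 most alike by Pearson's r, and up to 2 of a list in each direction. Others of the lists (Nolc1, Poldip3) were chosen after their values were seen.

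Transcript annotation was GENCODE vM21 on GRCm38, the build of the files, and sequences are those of the files. Tools were Python 3.11.15, pandas 2.3.3, numpy 2.4.6, scipy 1.17.1, matplotlib 3.10.9, ViennaRNA 2.7.2, R 4.3.3, limma 3.58.1 and edgeR 4.0.16. Tests were tried on simulated data. Alternatives were other filters, tests, scalings, a replicate block and leaving out libraries. Libraries were checked for pairing: replicate differences of same-numbered libraries correlated at -0.121 to 0.234 between conditions over 352 sites. Between the fractions of 1 concentration they correlated at 0.074 (LF), 0.017 (MF) and 0.076 (labelled HF) over sites. Over gene coverage these values were 0.236, 0.051 and 0.207. Such correlations cannot decide whether the numbers pair samples, and the main tests did not pair them.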

Additional observations from a re-analysis of the deposited data

Results flagged for a closer look

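The polysome minus total difference of Srsf6 gene coverage was not the same for pHF against the libraries labelled HF as for pMF against MF. On the 5 cytosines listed in all 12 libraries, the first log2 difference was 1.31 above the second (SE 0.196, limma adjusted p = 0.00027), with -0.24 against -1.55. Over all listed cytosines the same contrast was 2.43 (SE 0.380, limma adjusted p = 0.0025), with 0.84 against -1.59. On the common cytosines, both libraries labelled HF (1973 and 2044) lay below MF (4840 and 5009) in Srsf6 coverage, while pHF and pMF overlapped. Over all listed cytosines, the libraries labelled HF differed from MF by -1.73 (adjusted p = 0.00089), and pHF (1147 and 1860) from pMF (697 and 1151) by 0.71, which did not pass (adjusted p = 0.367). The contrast called 56.1% of 1338 genes over common cytosines and 11.5% of 9449 over all listed ones. The part of the labels in it was not tested, so the contrast is not given as an effect of folic acid. In its RNA-seq of total mRNA, the study did not name Srsf6 among the genes that differed between HF and MF.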

How the results depend on the processing

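Some settings were chosen after seeing the data: subtracting neighbours, the fits in LF and MF alone, the contrasts between concentrations and every alternative over all listed cytosines. With a minimum of 3 unconverted reads, 6 cytosines of the 3 genes passed in place of 3, and when both fractions of 1 concentration had to pass, Srsf6 alone did. A minimum coverage of 50 or 100, or of 10 unconverted reads, left out Nop58, and a minimum level of 0.2 left out Mcm3ap, with 2 sites kept each time. The small Srsf6 level difference between fractions (0.19 percentage points) was -1.01 without the second pHF library, -0.087 after subtracting neighbours and -1.29 to 2.37 when each library was left out, and 5.42 for reads pooled per fraction (exact permutation p = 0.0556). On limma log odds it was -0.0050 for LF against MF and -0.15 for pLF against pMF. With each library left out, the level difference was -2.15 to 2.05 for LF against MF, -6.42 to 5.19 for pLF against pMF, -3.64 to 7.96 for pHF against pMF and -1.08 to 7.92 for pLF against LF, none past the threshold. Srsf6 gene coverage for pLF against pMF was 0.45 over all listed cytosines and -0.19 to 0.13 with each library left out. For pHF against pMF it was -0.10 by the median over cytosines, -0.13 without the second pHF library and -0.13 to 0.17 with each library left out. For pHF against the libraries labelled HF it was 0.46 scaled by summed coverage (adjusted p = 0.0485, with all genes moved by 0.70), 0.84 over all listed cytosines, -0.38 without the second pHF library and -0.38 to -0.075 with each library left out. Over all listed cytosines, the Nop58 fraction difference was -0.40 in LF and MF alone, fitted without the libraries labelled HF, and -0.27 to 0.67 with each library left out. For LF against MF, leaving out each library gave -0.084 to 0.11 for Mcm3ap and -0.70 to 0.14 for Nop58. For Nop58 it gave -0.052 to 1.31 for pHF against pMF and -2.84 to -0.039 for pLF against pMF, where the lowest came without the second pLF library (adjusted p = 0.0337). The cause was not tested for any of these. With a replicate block no call on a member changed: the Srsf6 level difference kept p = 0.969 by exact permutation within pairs, and its gene coverage difference of -1.08 an adjusted p of 3.22e-07. Same-numbered libraries' differences in gene coverage correlated at -0.446 to 0.236. A minimum of 10 common cytosines left no value for Srsf6. Over all listed cytosines 2075 of 9449 genes were called for the libraries labelled HF against MF, against 887 of 1338, and 5414 against 1053 for the fractions.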
